A study of Homo sapiens with 8 samples.

Results

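The genes described here are 40 genes of glycolysis and of the response to low oxygen. They were chosen by name, with earlier results of these data known, so their counts beside all probe sets are description only. Of the 40, 25 act in glucose uptake, the glycolytic steps, their regulation and the handling of pyruvate and lactate. The 15 others are known as hypoxia targets or regulators. A gene was taken from a probe set that the platform annotation pairs with its symbol alone, and where several probe sets named it, the brightest was used. Of the 40, 34 were on the arrays used at 12 h, which name 7713 genes, and 37 on the larger arrays used at 6 h, which name 11963. GPI, KDM3A and DDIT4 were named at 6 h but not at 12 h, and SLC16A1, SLC16A3 and CA9 were named at neither time.

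MRC5, a diploid fibroblast line from human lung, was grown in EMEM with serum at 5% CO2 and exposed to 10 µM 8-oxoguanine, the free oxidised form of the base guanine, while mock cells received the solvent alone. Their RNA was hybridised to single-colour short-oligonucleotide arrays, with 3 treated and 3 mock arrays at 12 h and 1 of each at 6 h. The labels call the 12 h samples technical replicates by extract, and nothing says that they came from separate cultures. The p-values therefore cover the spread among extracts, which may be technical, in 1 cell line. Values are the deposited signals, an intensity per probe set on a linear scale with all arrays scaled to a common level, and the number of arrays limits the precision. Fold changes are differences in mean log2 signal, treated minus mock, with the standard error (SE) of limma's fit over all 5248 probe sets kept at 12 h and its Benjamini-Hochberg adjusted p. A gene is said to have fallen or risen where that p was under 0.05. Of the fibroblast markers, 10 of 13 were measured at 12 h, all above the lower signal limit of 93.9. Of these 1 fell and 2 rose, beside 6.65% and 6.59% of all probe sets tested. S100A4 fell by 0.58 (SE 0.09, limma adjusted p = 0.00302). LUM rose by 1.07 (SE 0.17, limma adjusted p = 0.0034) and PDGFRB by 0.30 (SE 0.08, limma adjusted p = 0.0446). The summed signal of the fibroblast markers ranged from 67266 to 80760 on mock and from 66113 to 80471 on treated arrays. COL1A2, VIM and COL1A1, at means of 21235, 18748 and 16569 in mock cells, made up most of it. Of the epithelial markers, 4 of 7 passed the filter (KRT18, KRT19, MUC1 and KRT8, at 3639, 277, 275 and 116 in mock cells), while the defining EPCAM and CDH1 did not, at 17.6 and 10.8. KRT19 fell by 1.27 (SE 0.17, limma adjusted p = 0.00145), and the others did not pass the test, with KRT8 and KRT18 higher on every treated array (0.49, SE 0.19, and 0.12, SE 0.07) and MUC1 lower (-0.44, SE 0.19). The summed epithelial signal was 4241 to 4529 on mock and 4395 to 4694 on treated arrays. Of the endothelial markers 1 of 6 passed the filter (PECAM1, at 135), and CDH5 and VWF did not, with sums of 251 to 292 on mock and 230 to 275 on treated arrays. Of the blood markers 3 of 6 passed (HBB, CD3E and MS4A1, at 221, 112 and 93.4), and PTPRC and CD14 did not, with sums of 467 to 504 on mock and 446 to 559 on treated arrays. None of these endothelial or blood markers passed the test, and the part of other cell types in the results was not tested. In bulk RNA, fewer cells of a type and less RNA per cell cannot be told apart.

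Glycolysis turns glucose into pyruvate in the cytosol and yields ATP without oxygen. Most steps have several isozymes, and the genes of many of them are targets of HIF-1, a transcription factor whose alpha subunit is hydroxylated by the EGLN enzymes and degraded when oxygen is present. The same factor activates genes for lactate production, for mitophagy, for collagen hydroxylation and for pH control. HIF-1 binds a short element whose core reads ACGTG or GCGTG.

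Promoter sequence was available from RefSeq (GRCh38.p14) for 36 of the 40 genes. The 250 bases before each annotated start were searched for ACGTG and GCGTG on both strands, with overlapping matches merged. A match was present in 41 of 66 windows of these genes, 62.1%, and in 43.2% of all 35116 windows of the table. Some genes have several, partly overlapping windows. Among genes with a single window, 18 of 23 listed genes held a match, against 42.2% of 22114 genes in the table. A match was found for 7 of 10 such genes that fell at 12 h and for 7 of 9 that were tested and did not pass. A match describes the letters only and is not evidence of binding. The windows of 4 genes that fell at 12 h and of LDHA, which did not pass, were picked after their values were seen. They are shown to let the element be seen, each 5′ to 3′ on the gene's strand with the matches in capitals. They are ENO2 (chr12:6914330-6914579, plus strand), BNIP3 (chr10:131981924-131982173, minus strand), PGK1 (chrX:78103998-78104247, plus strand), LDHA (chr11:18394313-18394562, plus strand, the more distal of 2 windows) and P4HA2 (chr5:132227092-132227341, minus strand).
ENO2 promoter: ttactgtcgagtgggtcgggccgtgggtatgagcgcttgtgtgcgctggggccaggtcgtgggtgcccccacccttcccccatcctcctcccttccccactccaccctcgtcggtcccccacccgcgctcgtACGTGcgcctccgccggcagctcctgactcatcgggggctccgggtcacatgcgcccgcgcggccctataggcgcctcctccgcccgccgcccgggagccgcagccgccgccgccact
BNIP3 promoter: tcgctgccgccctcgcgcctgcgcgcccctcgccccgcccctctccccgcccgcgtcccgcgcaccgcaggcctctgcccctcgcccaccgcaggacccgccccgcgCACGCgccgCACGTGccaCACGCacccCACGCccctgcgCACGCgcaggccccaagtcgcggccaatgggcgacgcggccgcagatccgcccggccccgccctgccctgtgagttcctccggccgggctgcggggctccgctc
PGK1 promoter: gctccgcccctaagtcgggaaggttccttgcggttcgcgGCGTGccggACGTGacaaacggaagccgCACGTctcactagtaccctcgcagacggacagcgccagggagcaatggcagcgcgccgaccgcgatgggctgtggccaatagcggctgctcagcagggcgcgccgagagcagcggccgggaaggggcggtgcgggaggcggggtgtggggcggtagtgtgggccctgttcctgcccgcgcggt
LDHA promoter: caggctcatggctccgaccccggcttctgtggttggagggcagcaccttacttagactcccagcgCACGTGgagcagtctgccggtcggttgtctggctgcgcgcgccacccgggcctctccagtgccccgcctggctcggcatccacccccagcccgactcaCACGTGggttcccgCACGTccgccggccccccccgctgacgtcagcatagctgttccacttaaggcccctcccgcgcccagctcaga
P4HA2 promoter: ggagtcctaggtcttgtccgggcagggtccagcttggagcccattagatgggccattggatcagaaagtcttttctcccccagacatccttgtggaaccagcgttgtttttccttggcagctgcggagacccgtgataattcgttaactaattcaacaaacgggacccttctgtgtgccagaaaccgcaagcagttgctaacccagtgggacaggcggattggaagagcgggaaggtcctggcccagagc
ENO2 held 1 match, BNIP3 5, PGK1 3 and LDHA 3, while P4HA2 held none. Windows with 3 or more matches made up 5.56% of all windows.

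At 12 h the listed genes were mostly lower in treated cells. Of 34 on the arrays, 33 passed the filter on dim signals, and of these 15 fell, 0 rose and 18 did not pass. Falls made up 6.65% and rises 6.59% of all probe sets tested, 13.2% in either direction. The arrays of the 2 treatments did not overlap, with treated lower, for 17 of the 33, and 1 more gene was higher on every treated array. These shares were 16.5% and 17.4% among all probe sets. A fold change below 0 was seen for 27 of 33, against 48.6% of all probe sets tested. The median fold change was -0.30 for the 21 glycolytic genes and -0.19 for the 12 other hypoxia genes, beside 0.0072 over all probe sets. Without 8-oxoguanine replicate 3 the median of the other hypoxia genes was -0.12. The falls were of moderate size, from 82.2% of the mock level for P4HA1 down to 42.8% for ENO2, and 4 of the 15 were 1.5-fold or more. The treated arrays differed from the mock arrays in the 3' to 5' signal ratio of the actin control probe sets, at 0.999 to 1.07 against 0.889 to 0.995. The GAPDH ratio overlapped between them, at 0.802 to 0.843 and 0.779 to 0.826. The part of RNA quality in the falls was not tested.

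The number of falls was 9 without 8-oxoguanine replicate 1 and 7 without 8-oxoguanine replicate 2. HK2, PFKP, PGK1, ENO2, BNIP3, P4HA2 and NDRG1 were called in all 6 fits that each left out 1 array. The other 8 genes that fell, SLC2A1, PFKFB3, ALDOC, TPI1, PGAM1, ENO1, P4HA1 and GBE1, lost their call in at least 1 of these fits.

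**Figure D1:**
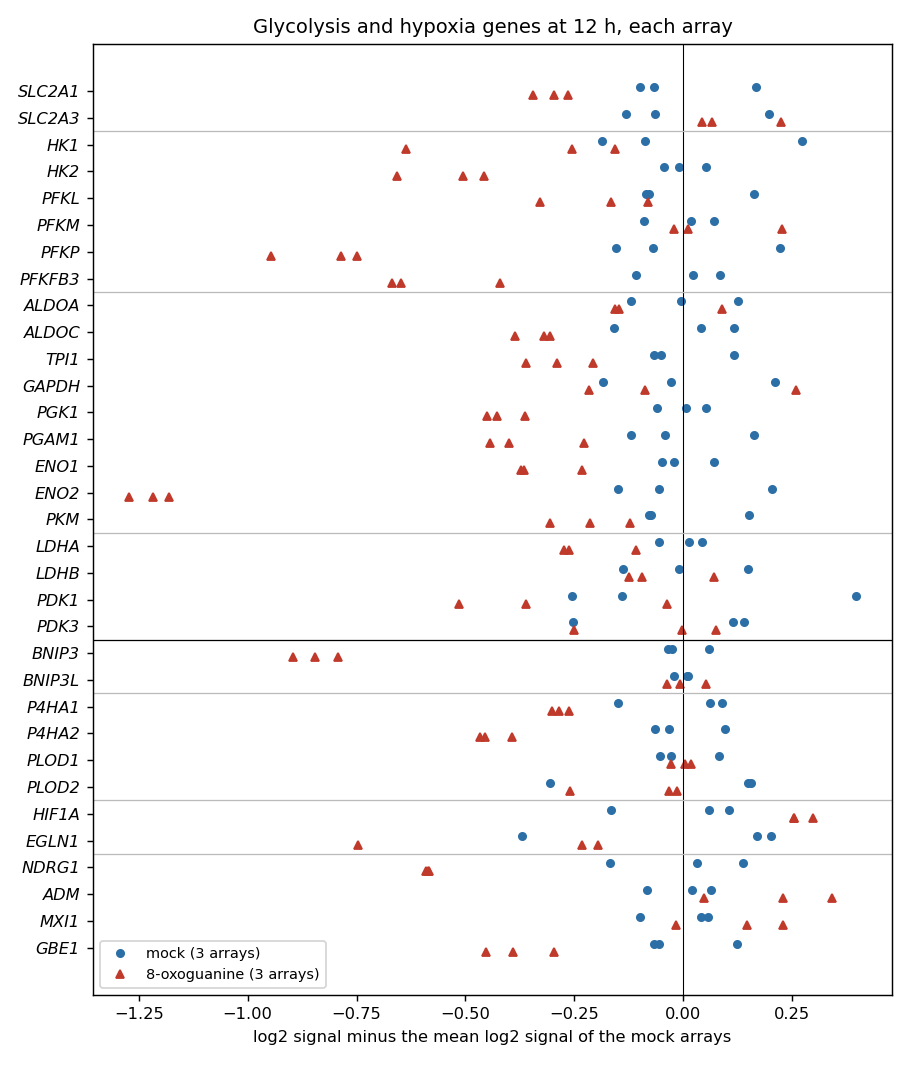
Signals of the 33 tested genes at 12 h, 1 row per gene, grouped by role with glycolytic genes above the black line; blue circles are the 3 mock arrays, red triangles the 3 treated arrays, and the x axis is log2 signal minus the gene's mean on the mock arrays. The triangles lie left of all circles in 17 rows, farthest for ENO2, PFKP and BNIP3, and right of all circles for HIF1A.

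Of the glucose transporters, 1 of 2 tested fell. SLC2A1, the transporter GLUT1 found in most cells, had signals of 1430.2, 1722 and 1462 on the mock arrays and 1248, 1208 and 1277 on the treated arrays. All treated values lay below all mock values, and the fold change of -0.30 (SE 0.09, limma adjusted p = 0.0472) was close to the threshold. SLC2A3, the high-affinity transporter GLUT3, overlapped between the groups, with 261, 313 and 249 in mock and 286, 282 and 319 in treated cells (0.11, SE 0.13, limma adjusted p = 0.632).

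In the upper steps, 3 of 6 tested genes fell. PFKP, the platelet-type phosphofructokinase subunit of the committed step, had signals of 4188, 5431 and 4439 in mock and 2418, 2701 and 2769 in treated cells. Each treated array was below every mock array, and the gene fell to 56.4% of mock (-0.83, SE 0.10, limma adjusted p = 0.00107). HK2, the inducible hexokinase that traps glucose as glucose 6-phosphate, had 552, 576 and 539 in mock and 353, 392 and 405 in treated cells. The groups stood clearly apart (-0.54, SE 0.10, limma adjusted p = 0.00641). PFKFB3, which makes the activator fructose 2,6-bisphosphate, fell from 366, 351 and 320.3 to 258, 217 and 220.2 (-0.58, SE 0.13, limma adjusted p = 0.0151). Again no treated array reached the lowest mock array. HK1, the widely expressed hexokinase, was at -0.35 with a wide spread (SE 0.14, limma adjusted p = 0.145), since mock signals of 1534, 2107 and 1642 overlapped treated signals of 1566, 1460.3 and 1121. The liver-type and muscle-type phosphofructokinases PFKL and PFKM had -0.19 (SE 0.10) and 0.07 (SE 0.09) and did not pass. PFKFB4, a relative of PFKFB3, was too dim to test, with 27.3, 59.6 and 40.2 in mock and 19.0, 27.8 and 43.5 in treated cells.

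The lower steps held 6 of the 15 falls, among 9 genes measured, and all 9 fold changes were below 0. ENO2, the gamma enolase best known from neurons, had the largest change of all the listed genes. Its mock signals were 547, 699 and 584 and its treated signals 267, 251 and 261. The treated arrays were close together and under every mock array, at 42.8% of mock, and the fold change was -1.22 (SE 0.12, limma adjusted p = 0.000263). PGK1, phosphoglycerate kinase, which makes the earliest ATP of the pathway, had 6234, 6034 and 5765 in mock and 4398, 4464 and 4667 in treated cells. It fell to 75.0% of mock with little scatter in either group (-0.41, SE 0.07, limma adjusted p = 0.00363). PGAM1, a phosphoglycerate mutase, had 7924, 9639.5 and 8363 in mock and 6332, 6533 and 7355 in treated cells (-0.36, SE 0.09, limma adjusted p = 0.0309). Here too the groups did not overlap, though the gap between 7355 and 7924 was small. The brain-type aldolase ALDOC (-0.34, SE 0.09), the alpha enolase ENO1 (-0.32, SE 0.07) and the triose phosphate isomerase TPI1 (-0.29, SE 0.08) also fell, with limma adjusted p of 0.0430, 0.0165 and 0.0364.

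Of the remaining lower enzymes, PKM, pyruvate kinase, did not pass (-0.21, SE 0.09, limma adjusted p = 0.131), although its treated signals of 8212 to 9326 lay under its mock signals of 9621 to 11270. With quantile normalization PKM was called lower (-0.30, limma adjusted p = 0.00465), and in the other fits its adjusted p was 0.0548 to 0.353. ALDOA, the muscle and general aldolase, had -0.07 (SE 0.09) and overlapped between groups. GAPDH, the dehydrogenase often used as a reference gene, had 15434, 20304 and 17209 in mock and 16497, 15089 and 20998 in treated cells (-0.02, SE 0.13, limma adjusted p = 0.959). Its 95% interval ran from -0.315 to 0.285. Separate control probe sets for the 5', middle and 3' parts of the GAPDH message had differences of -0.06, -0.06 and -0.04. Probe sets for GAPDH, ALDOA, LDHB and EGLN1 carry the _x_at suffix, which the array's maker gives to sets that can bind other transcripts, so signal from near-identical copies cannot be told apart there.

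At the pyruvate branch, none of the 4 genes tested fell on the deposited scale, and the call for LDHA depended on the scaling. LDHA, the lactate dehydrogenase subunit favoured in lactate production, had 13800.5, 13149 and 14075 in mock and 11390.3, 11306 and 12681 in treated cells. The groups did not overlap, but the adjusted p of 0.0851 in limma missed the threshold (-0.22, SE 0.07). It was past the threshold with median centring (-0.23, adjusted p = 0.0470), with quantile normalization (-0.31, adjusted p = 0.0143) and without 8-oxoguanine replicate 3 (-0.27, adjusted p = 0.0377), and its adjusted p ranged up to 0.272 in the other fits. LDHB, the heart-type subunit, had -0.05 (SE 0.09). The pyruvate dehydrogenase kinases PDK1 and PDK3, which hold pyruvate back from the mitochondria, had -0.30 (SE 0.21) and -0.06 (SE 0.17) at signals of 149 to 280.0, with wide intervals from -0.77 to 0.16 and from -0.44 to 0.32.

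Among the 12 other hypoxia genes that were tested, 5 fell. BNIP3, a mitochondrial receptor for mitophagy, had 3431, 3666 and 3454 in mock and 2029.9, 1957 and 1889 in treated cells. It had the smallest adjusted p of the listed genes, and both groups were tight (-0.84, SE 0.07, limma adjusted p = 8.5e-05). Its relative BNIP3L, or NIX, had 3445, 3528 and 3523 in mock and 3407, 3479 and 3629.9 in treated cells, a fold change of 0.0024 (SE 0.06) with a 95% interval of -0.14 to 0.14. NDRG1, a stress-responsive gene strongly induced by hypoxia, had 935, 756 and 868 in mock and 566, 564 and 567 in treated cells. The treated arrays were nearly identical and below all mock arrays (-0.59, SE 0.10, limma adjusted p = 0.00402).

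The collagen prolyl 4-hydroxylase subunits fell. P4HA2 had 4272, 4175 and 4670.0 in mock and 3328, 3161 and 3185 in treated cells (-0.44, SE 0.07, limma adjusted p = 0.00363). P4HA1 had 3861, 3274 and 3788 in mock and 3029, 2945 and 2978 in treated cells (-0.28, SE 0.08, limma adjusted p = 0.0402). In both, every treated array was below every mock array. The lysyl hydroxylases PLOD1 (-0.0015, SE 0.07) and PLOD2 (-0.10, SE 0.13), which modify collagen before it is crosslinked, overlapped between the groups. GBE1, the glycogen branching enzyme, fell from 2531, 2217 and 2233 to 1891, 1772 and 1696 (-0.38, SE 0.08, limma adjusted p = 0.0129).

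HIF1A itself, the oxygen-regulated subunit of HIF-1, was higher on all treated arrays, with 5134, 4255 and 4973 in mock and 5869, 5695 and 5696 in treated cells. Its fold change of 0.27 (SE 0.08) missed the threshold, with an adjusted p of 0.0548 in limma. The array reads mRNA, and the HIF-1 alpha protein was not measured. EGLN1, the main oxygen-sensing hydroxylase, had 354 to 527 in mock and 273 to 400.3 in treated cells and did not pass (-0.39, SE 0.19, limma adjusted p = 0.21). ADM, the vasodilator peptide adrenomedullin, and MXI1, a MYC antagonist, had fold changes of 0.21 (SE 0.09) and 0.12 (SE 0.09), neither of which passed.

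**Figure D2:**
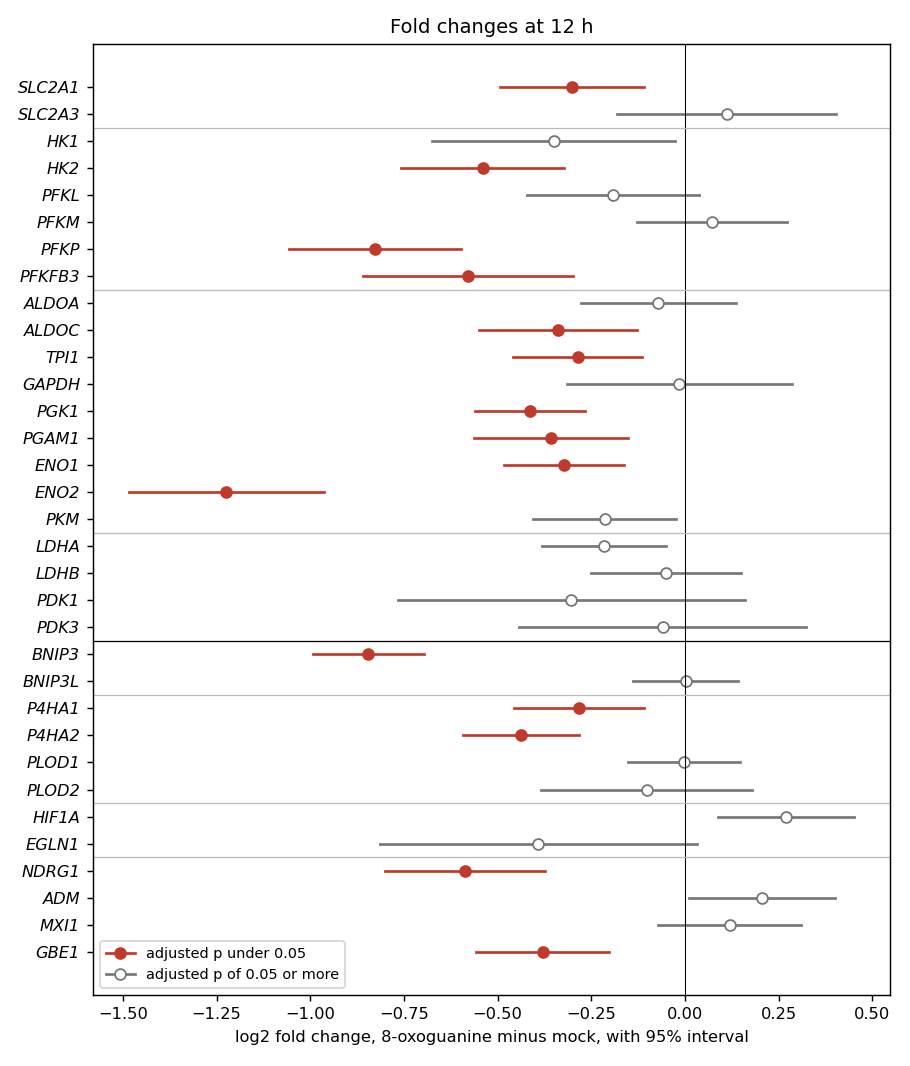
Log2 fold changes at 12 h, treated minus mock, with 95% intervals from limma (x axis), for the 33 tested genes in the same order; filled red points passed the threshold and open grey points did not. All 15 red points are below 0, from -0.28 for P4HA1 to -1.22 for ENO2, and the grey points with the highest values are HIF1A at 0.27 and ADM at 0.21.

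Related genes of a family were then compared within each array, which removes a scale factor common to all signals of the array. An effect that depends on signal strength is not removed where the 2 genes differ in signal, such as ENO1 and ENO2 (means of 8978 and 610 in mock cells). The measure was the difference in log2 signal between the genes, set between 3 treated and 3 mock arrays by an exact two-sided permutation test, for which 0.1 is the smallest possible p. Of 10 pairs, 7 had differences that did not overlap between treatments, each with exact p = 0.1 (adjusted over the pairs, 0.143). Among single probe sets, 16.5% did not overlap with treated lower and 17.4% with treated higher. The same count over other pairs of genes was not made, and PFKP is in more than 1 pair. No pair could therefore pass a threshold of 0.05. PFKP minus PFKM was 2.04, 2.26 and 2.02 on the mock arrays and 1.15, 1.34 and 1.13 on the treated arrays, a change of -0.90, and PFKP minus PFKL changed by -0.64. The ENO1 minus ENO2 difference was 3.99, 3.75 and 3.92 on the mock arrays and 4.70, 4.79 and 4.87 on the treated arrays, an increase of 0.90. For BNIP3 minus BNIP3L the values were -0.01, 0.06 and -0.03 in mock and -0.75, -0.83 and -0.94 in treated cells. The SLC2A1 minus SLC2A3 difference was lower by 0.41, and ALDOA minus ALDOC and P4HA1 minus P4HA2 were higher by 0.27 and 0.15. The gap was narrow for ALDOA minus ALDOC, with nearest values of 3.806 treated and 3.799 mock. It was narrow too for P4HA1 minus P4HA2, at -0.136 treated and -0.146 mock. With quantile normalization ALDOA minus ALDOC was higher by 0.17, and its groups no longer separated (exact p = 0.3). HK1 minus HK2, LDHA minus LDHB and PLOD1 minus PLOD2 overlapped between the treatments, with exact p = 0.5, 0.4 and 0.5.

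**Figure D3:**
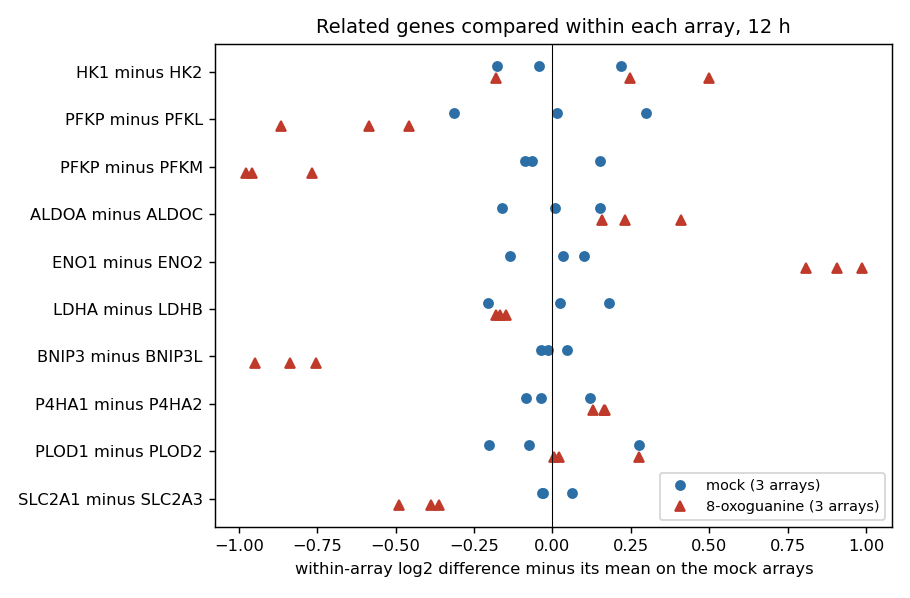
Within-array differences in log2 signal between related genes at 12 h, shown minus their mean on the mock arrays (x axis), for 10 pairs (rows); blue circles are the 3 mock and red triangles the 3 treated arrays. The treated and mock arrays separate most for PFKP minus PFKM, ENO1 minus ENO2 and BNIP3 minus BNIP3L, where the groups differ by 0.85 to 0.90.

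Further genes of the pathway were taken from lists that overlap neither each other nor the 40. These lists too were chosen with earlier results of these data known. Among all probe sets tested at 12 h, 6.65% fell and 6.59% rose. Of 15 other glycolysis and pyruvate genes tested, 1 fell and 1 rose, which is near these shares. PGM1, the phosphoglucomutase linking glycogen and glycolysis, fell by 0.41 (SE 0.07, limma adjusted p = 0.00504), and BSG, or basigin, the partner that carries lactate transporters to the membrane, rose by 0.35 (SE 0.07, limma adjusted p = 0.00880). Of 9 glycogen genes, GYS1, the muscle-type glycogen synthase, fell from 2066, 1944 and 2774 to 1212, 1196 and 1191 (-0.90, SE 0.12, limma adjusted p = 0.00148). Its treated signals were close together and far under the mock range. PPP1R3C, a glycogen-targeting phosphatase subunit, rose by 0.25 (SE 0.06, limma adjusted p = 0.0282).

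Of 10 regulators of the HIF pathway tested, 2 rose and 0 fell, beside 6.59% and 6.65% of all probe sets tested. EPAS1, which encodes HIF-2 alpha, had 2592, 2129 and 2412 in mock and 3116, 3312 and 3570.4 in treated cells (0.49, SE 0.09, limma adjusted p = 0.00657). CITED2, which competes with HIF-1 alpha for its coactivators, had 1859.7, 1625 and 1877 in mock and 2404, 2551 and 2263 in treated cells (0.43, SE 0.08, limma adjusted p = 0.00847). For both genes all treated arrays were above all mock arrays.

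Of 25 other hypoxia targets tested, 8 fell and 0 rose, beside 6.65% and 6.59% of all probe sets tested. Their median fold change was -0.15, and 15 of the 25 were below 0, against 48.6% of all probe sets tested. All treated arrays were below all mock arrays for 9 and above them for 4, beside 16.5% and 17.4% of all probe sets. The 5 largest falls were those of ANGPTL4 (-1.86, SE 0.32), an inhibitor of lipoprotein lipase, BHLHE40 (-0.88, SE 0.13), a transcriptional repressor, STC1 (-0.87, SE 0.10), or stanniocalcin, AK4 (-0.51, SE 0.09), a mitochondrial adenylate kinase, and ADORA2B (-0.41, SE 0.09), an adenosine receptor. STC1 signals were 1029, 1207 and 1007 in mock and 638, 554 and 586 in treated cells. ANGPTL4 averaged 68.3 in treated cells, under the filter limit, so the size of its fall is uncertain. VEGFA, the angiogenic factor often read as a marker of hypoxia, was higher on every treated array. Its signals were 1312, 1217 and 1250.0 in mock and 1422, 1539 and 1513 in treated cells (0.24, SE 0.07). It missed the threshold with an adjusted p of 0.0514 in limma. CA12 (0.31, SE 0.11), VLDLR (0.32, SE 0.09) and RBPJ (0.17, SE 0.09) were also higher on every treated array, and none of them passed. Of 4 tested genes of the glucose-sensing MondoA and MYC network, TXNIP, which restrains glucose uptake, fell from 1511, 1745 and 1498 to 144, 155 and 164 (-3.36, SE 0.10, limma adjusted p = 1.65e-07). MYC, an activator of many glycolytic genes, had 880.0, 820.2 and 885 in mock and 938, 971 and 935 in treated cells (0.14, SE 0.08, limma adjusted p = 0.263).

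At 6 h, with 1 array per treatment, there was no replicate check and no test, and the ratios depended on signal strength. Of 37 listed genes on these arrays, 35 passed the lower signal limit of 148.0, and PFKFB4 and PDK3 did not. On the deposited scale 4 of the 35 were 1.5-fold or more higher on the treated array and 0 were 1.5-fold or more lower, against 3.32% and 5.44% of all 11108 probe sets kept. The 4 were GAPDH (14016 treated, 7382 mock), LDHA (13697 and 7531), ALDOA (10919 and 6541) and LDHB (10072 and 6252), with log2 ratios of 0.92, 0.86, 0.74 and 0.69. Bright probe sets in general shared this: 328 exceeded a signal of 8000 on at least 1 array, and their median ratio was 0.67. This group was chosen by the higher signal of each probe set. In the brightest of 20 bins by mean signal the median was 0.53. After quantile normalization the median of the 328 was 0.01, and the 4 genes had ratios of 0.18, 0.09, 0.14 and 0.14. Of the 35, 0 were then past 1.5-fold in either direction, against 2.12% higher and 3.85% lower of all. With median centring 9 were higher and 0 lower, against 5.41% and 3.29%. These values are those of the brightest probe sets. The GAPDH probe set used at 12 h had 1.17 on the deposited scale and 0.46 after quantile normalization. The remaining GAPDH set had 0.995 and 0.26. On the quantile scale the 95th percentile of all probe sets was 0.32 in the brightest of 20 signal bins, so 0.46 lay above it.

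The median ratio of the 21 glycolytic genes was 0.37 on the deposited scale, 0.49 with median centring and 0.09 with quantile normalization. For the 14 other hypoxia genes it was 0.07, 0.18 and -0.03. Over all probe sets kept, the medians under the same settings were -0.03, 0.08 and 0.02. Several members kept their ratio under both the deposited and the quantile scale. HK1 had 2448 treated and 1723 mock, a ratio of 0.51 that was 0.52 after quantile normalization, and NDRG1 had 907 and 682, with ratios of 0.41 and 0.50. On the lower side, EGLN1 had 322 and 453 (-0.49 and -0.39), ENO2 had 353 and 473 (-0.42 and -0.32) and HK2 had 772 and 1019 (-0.40 and -0.31). HIF1A, with 8058 and 6278, had a ratio of 0.36 that turned to -0.11. KDM3A, a histone demethylase, and DDIT4, an inhibitor of mTORC1, which were named only on these arrays, had -0.16 and 0.07, and the isomerase GPI had 0.29. Other probe sets of a gene could disagree: SLC2A3 had 0.07, 0.01 and -0.64, PFKL had -0.04 and 0.72, and PGK1 had 0.37, 0.03 and 0.10 among those above the limit.

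The other glycolytic genes divided by signal strength. Bright genes of the lower steps had positive deposited ratios that shrank or turned under quantile normalization: PGAM1 went from 0.55 to 0.068, ENO1 from 0.51 to -0.23, TPI1 from 0.50 to 0.10, PKM from 0.47 to -0.024 and PGK1 from 0.37 to -0.16. PFKP, also bright, went from 0.39 to 0.20. The turn of ENO1 was that of its brightest probe set, while its other sets above the limit went from 0.72 to 0.094 and from 0.55 to 0.65. The other PKM set above the limit, far dimmer at 212 treated and 149 mock, went from 0.51 to 0.63. Dimmer genes moved less between the scales, with PDK1 at 0.29 and 0.40, PFKM at 0.11 and 0.19, SLC2A1 at 0.0057 and 0.082, ALDOC at -0.054 and 0.048 and PFKFB3 at -0.18 and -0.099.

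Of the remaining hypoxia genes, the mitophagy receptors were lower on the treated array at 6 h on both scales by their brightest probe sets. BNIP3 was at -0.12 and -0.19 and BNIP3L at -0.31 and -0.30. The other BNIP3 probe set had -0.26 and -0.24. The other BNIP3L probe set, the one used at 12 h, had only -0.075 and -0.046. The collagen enzymes differed in sign. PLOD2 had -0.27 and -0.32, while its other probe set had -0.021 and -0.014. PLOD1 was at 0.26 and 0.22, P4HA2 at 0.23 and 0.14, and P4HA1 at 0.058 and -0.088. MXI1 had 0.19 and 0.27, ADM 0.16 and 0.15, and GBE1 0.063 and -0.0060. None of these genes reached 1.5-fold on the deposited or the quantile scale.

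**Figure D4:**
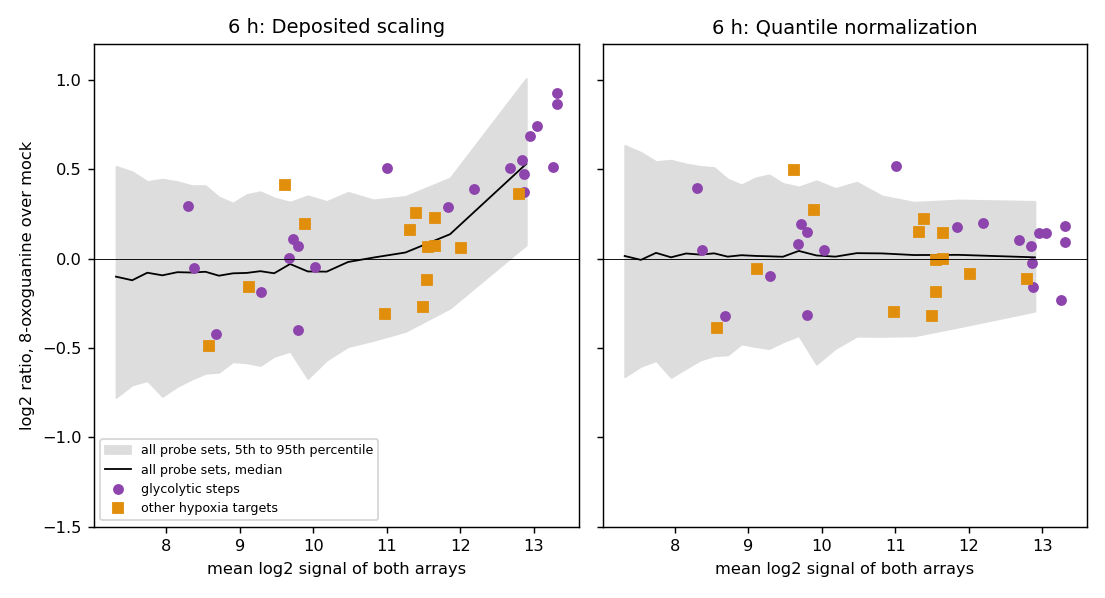
Log2 ratio of treated over mock at 6 h (y axis) against the mean log2 signal of both arrays (x axis), with the deposited scaling at left and quantile normalization at right; purple circles are glycolytic genes, orange squares other hypoxia genes, the line is the median and the grey band the 5th to 95th percentile of all probe sets in 20 signal bins. On the left the median rises to 0.53 in the brightest bin, which holds the brightest glycolytic genes, and on the right it is flat near 0.

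Of the genes that fell at 12 h, ENO2, HK2, PFKFB3 and BNIP3 were also below 0 at 6 h under all 3 scalings. ALDOC was below 0 at 6 h on the deposited scale only (-0.054). The deposited 6 h ratios of ENO2, HK2, PFKFB3 and BNIP3 were -0.42, -0.40, -0.18 and -0.12 beside 12 h fold changes of -1.22, -0.54, -0.58 and -0.84. These 6 h ratios lay inside the 5th to 95th percentile band of all probe sets of like signal. With median centring the 6 h ratios of the same 4 genes were -0.31, -0.29, -0.069 and -0.0071, so that of BNIP3 was close to 0 there. At 6 h, 18 genes whose groups did not overlap at 12 h were kept. Of these, 12 had the opposite sign at 6 h on the deposited scale and 7 under all 3 scalings. All 12 were lower at 12 h, and median centring raised every 6 h ratio by the same amount. Only quantile normalization could therefore lower the count. Of all probe sets kept at 6 h, 45.6% had a ratio above 0 on the deposited scale and 52.9% after quantile normalization. The same count over all probe sets was not made. Exposure time changed together with the array type and the replicate number, and no test was made between 6 h and 12 h.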

How the data were processed

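The values deposited by the authors are linear probe set intensities; the submitters' processing notes name MAS5, with settings not given in these sources. The trimmed mean of each array (without 2% at either end) was 500.1 to 500.5. The time labels were followed, although the treatment protocol names 6 h. No scaling was added before log2, control probe sets were dropped, and probe sets under the 40th (12 h) or 50th (6 h) percentile of mean log2 signal were removed. Names came from the platform annotation: 7840 of 8746 probe sets at 12 h and 19064 of 22215 at 6 h had 1 symbol, 388 and 1043 several, 518 and 2108 none.

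At 12 h, limma 3.58.1 (R 4.3.3) tested treated against mock (lmFit, eBayes with an intensity trend, Benjamini-Hochberg over 5248 probe sets, threshold 0.05), which was tested on simulated data. No test was made at 6 h. All listed genes are named; of the further lists, up to 5 genes past the threshold by size of change, with TXNIP, MYC and VEGFA, and ARRDC4, not named on these arrays. The genes and lists were chosen with earlier results of these data known. Alternatives were other scalings, filters, a constant added before log2, no trend, a replicate block, averaging the probe sets of a gene, and fits without each array in turn.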

Additional observations from a re-analysis of the deposited data

Results flagged for a closer look

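For 7 genes the 6 h ratio, from 1 array per treatment, was above 0 under all 3 scalings. At 12 h every treated array was below every mock array for these genes, and no test was made between 6 h and 12 h. Median centring raised every 6 h ratio by the same amount, so it could not turn a ratio above 0. The deposited log2 ratios at 6 h were 0.86 for LDHA, 0.55 for PGAM1, 0.50 for TPI1, 0.41 for NDRG1, 0.39 for PFKP, 0.23 for P4HA2 and 0.0057 for SLC2A1, against 12 h fold changes of -0.22, -0.36, -0.29, -0.59, -0.83, -0.44 and -0.30. After quantile normalization the 6 h ratios were 0.093, 0.068, 0.10, 0.50, 0.20, 0.14 and 0.082 in the same order, so that of NDRG1 was the largest of these. On that scale the 5th to 95th percentile of all probe sets was -0.29 to 0.32 in the brightest of 20 signal bins. In the bin nearest in signal to NDRG1 and SLC2A1 it was -0.43 to 0.40. NDRG1 lay above that band, and the other genes lay inside the bands nearest to their signal.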

How the results depend on the processing

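The median fold changes at 12 h kept their sign under all 14 alternatives (without 1 array, -0.33 to -0.23 for glycolytic and -0.25 to -0.12 for other genes), and HK2, PFKP, PGK1, ENO2, BNIP3, P4HA2 and NDRG1 were called in each. Of the 15 falls, 8 were called without the intensity trend (5 glycolytic, 3 other) and 9 with the replicate number as a block (5 glycolytic), while 6 glycolytic genes were called with no filter. Same-numbered extracts did not deviate together (correlations of 0.0757, -0.149 and -0.0503), so the number is not treated as a pairing. HIF1A became the 1 gene called higher with the stricter filter (limma adjusted p = 0.0432; 0.0533 to 0.170 elsewhere). LDHA was called lower with median centring, quantile normalization and without 8-oxoguanine replicate 3, and PKM with quantile normalization. Leaving out 1 array gave 371 to 652 calls among all probe sets, 7 to 13 falls among the listed genes, 4 to 9 among the glycolytic and 3 to 5 among the others. Under quantile normalization BNIP3L had -0.0063 and PLOD1 0.015, and median centring gave -0.013 for BNIP3L. When 1 array was left out, signs turned for GAPDH (-0.15 to 0.091), LDHB (-0.12 to 0.024), PDK3 (-0.19 to 0.037), PFKM (-0.0045 to 0.12), BNIP3L (-0.023 to 0.023), PLOD1 (-0.029 to 0.040) and the PLOD1 minus PLOD2 difference (-0.00099 to 0.24). At 6 h the genes past 1.5-fold higher were 9 with median centring and 0 with quantile normalization, and the medians were 0.49 and 0.093 for glycolytic genes and 0.18 and -0.031 for the others. The cause of these changes was not tested.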
